A study of Homo sapiens with 15 samples.

Results

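Integrins are the cell's main receptors for the extracellular matrix. The 10 integrin genes described here are ITGA1, ITGA2, ITGA3, ITGA5, ITGA6, ITGA11, ITGAV, ITGB1, ITGB2 and ITGB3, of 26 integrin subunit genes and 60675 genes in the deposited table. They encode 7 alpha and 3 beta subunits, and were picked by name with results of these data known. Expression was measured by RNA-seq in HT1080 cells, a human fibrosarcoma cell line, in 15 libraries that fall into 5 groups of 3 biological replicates. All cells were treated with an inhibitor of a lysine deacetylase (KDAC). Wild-type (WT) cells were treated for 14 days with either 1 μM Tubastatin A, an inhibitor of KDAC6, or 5 μM PCI-34051, an inhibitor of KDAC8. The other groups received the same doses for 2 days. 6CD1m cells (KDAC6H216A) and 6CD2m cells (KDAC6H611A), which carry an inactive first and an inactive second catalytic domain of KDAC6, were treated with Tubastatin A, and 8CDm cells (KDAC8H143A), which carry inactive KDAC8, with PCI-34051. These lines were made by editing the endogenous gene with missense changes and go on expressing the enzyme, so gene counts do not check their genotype. Because each mutant line was treated for 2 days and WT cells for 14 days, line and duration of treatment cannot be told apart when a mutant line is compared with WT cells. Untreated cells are not analysed here.

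Each integrin is a heterodimer of an alpha and a beta subunit, and the pair decides which ligand is bound. The products of ITGA1, ITGA2 and ITGA11 pair with that of ITGB1 to bind collagens. Those of ITGA3 and ITGA6 bind laminins, and those of ITGA5 and ITGAV bind fibronectin, vitronectin and other ligands with an RGD sequence, ITGAV also together with ITGB3. ITGB2 belongs to the leukocyte integrins, whose alpha partners are encoded by ITGAL, ITGAM, ITGAX and ITGAD and whose ligands include ICAM1. Fibrosarcoma cells resemble fibroblasts, which use the collagen and fibronectin receptors to hold and remodel matrix. Here the levels of VIM, CDH2, FN1 and SPARC, markers of such cells, were well above their detection floor in every library, whereas THY1 stayed at a mean of 0.847 to 1.49 CPM, that is, counts scaled to a common library total, in every group. The summed level of 5 epithelial markers was at most 15.4 CPM and that of 4 endothelial markers at most 5.1 CPM in any library, against 3840 to 7230 CPM for the mesenchymal markers.

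Library totals on genes ran from 10932455 to 19983710 counts (median 17551887). Levels were scaled to library sizes adjusted by TMM, and those of different genes were compared only per kilobase (kb) of exon. Libraries and whole groups differed in how their values depended on the GC content of genes. The Spearman correlation of a gene's deviation from its mean over libraries with its GC content was 0.023 in replicate 1 of WT cells on PCI-34051 and 0.592 and 0.58 in the others of that group. It was 0.538 in replicate 1 of 6CD1m cells and 0.273 and -0.146 in the others. In WT cells on Tubastatin A it was -0.366, -0.0617 and 0.213. Every library of 6CD2m cells (-0.236, -0.278 and -0.379) and of 8CDm cells (-0.386, -0.299 and -0.308) had a negative value. The members with the most AT-rich transcripts are touched by this, and their values are given with and without an offset for GC content. p-values here rest on the spread between replicate libraries within groups, pooled over the 5 groups in 1 fit. They do not cover a spread between independently edited lines. The members' own changes are a description with no test, since the genes were picked with these results known.

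ITGA11 and ITGB2 varied most between groups. ITGA11 was highest in WT cells on PCI-34051 and lowest in 8CDm cells on the same inhibitor, and ITGB2 was highest in 6CD2m cells. ITGA11 (ENSG00000137809) lies on chromosome 15, from 68296533 to 68432162 on the minus strand of GRCh38. Its promoter is shown because no other member moved as far in the lower direction. It is given as the 250 bases before the start of the gene in RefSeq (GRCh38.p14, chr15:68432164-68432413, minus strand), 5′ to 3′, with the single match to the core of ETS factor sites, AGGAAG on either strand, in capitals.
ITGA11: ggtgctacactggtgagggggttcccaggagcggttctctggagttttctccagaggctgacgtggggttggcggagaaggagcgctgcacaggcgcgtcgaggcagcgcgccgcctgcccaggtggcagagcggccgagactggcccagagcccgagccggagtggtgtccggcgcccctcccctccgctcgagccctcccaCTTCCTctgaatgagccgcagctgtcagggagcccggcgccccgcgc
The match starts at position -47 from the start site, and 28.7% of 35116 promoters of the same length hold this motif. No match to a GC box (GGGCGG, in 42.6% of promoters), an AP-1 site (TGANTCA, in 6.6%), a TATA box (TATAAA, in 10.7%) or an E-box (CACGTG, in 6.3%) was found on either strand in this window, which is 71.2% G and C. RefSeq promoters were found for 7 of the 10 members, and ITGA3, ITGB2 and ITGB3 had no entry.

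Per kb of exon, the levels of the 10 genes covered a wide range. Averaged over the 15 libraries, ITGA3 was the most abundant subunit at 234 CPM per kb, followed by ITGB1 at 191 CPM per kb. ITGA6, ITGA5 and ITGA2 were close to each other at 57.6, 56.5 and 53.0 CPM per kb. The next members were ITGAV at 13.2, ITGB3 at 13.1 and ITGA11 at 6.16 CPM per kb. ITGB2 and ITGA1 were the lowest members at 0.964 and 0.783 CPM per kb. The laminin-binding ITGA3 was thus the most abundant alpha subunit per kb, ITGA2 was the most abundant of the collagen-binding subunits, and a leukocyte beta subunit was present at a low level. Among the 16 other subunits only ITGB5, which pairs with ITGAV, and ITGA10, a collagen-binding subunit, lay above ITGAV, at 53.5 and 16.1 CPM per kb. All 10 members passed the filter on low counts, as did 12 of the 16 others. ITGB6, ITGAD, ITGAL and ITGA8 did not pass.

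**Figure D1:**
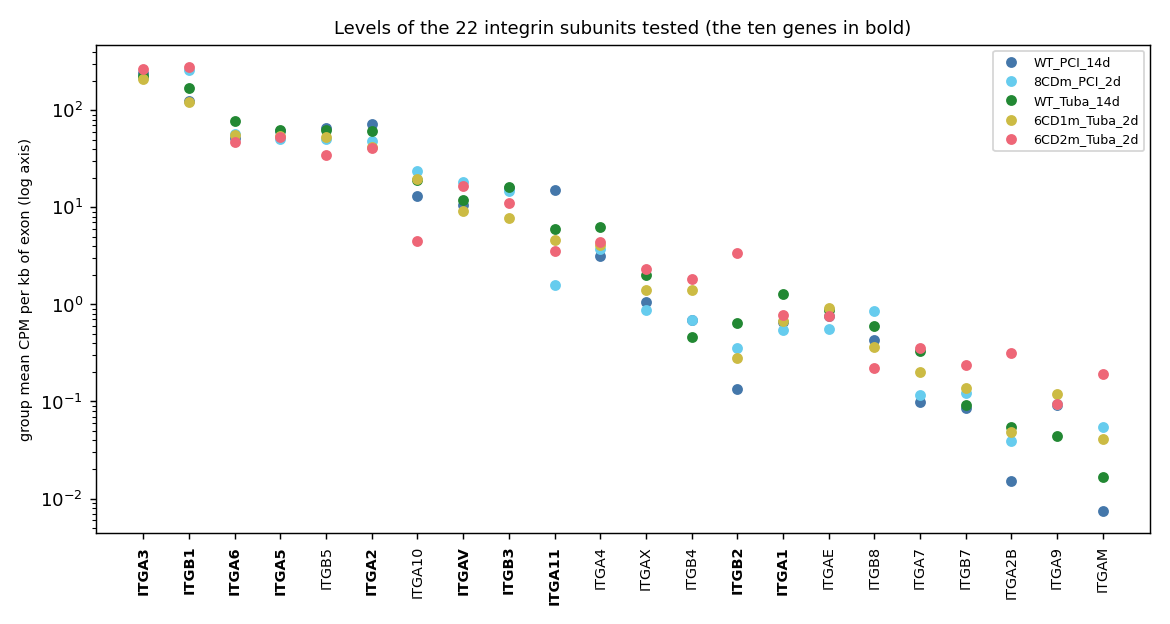
Group mean level (CPM per kb of exon, log axis) of the 22 integrin subunits that passed the filter, in order of their mean over 15 libraries, with the 10 members in bold and 1 point per group. ITGA3 and ITGB1 lie at the top, and ITGB2 has the widest spread of group means among the members.

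The spread between groups differed between the genes. The ratio of the highest to the lowest library was 49.5 for ITGB2 and 10.3 for ITGA11. It was 4.25 for ITGB1, 3.89 for ITGA2, 3.46 for ITGA1, 2.79 for ITGB3, 2.76 for ITGA6 and 2.73 for ITGAV. For ITGA3 and ITGA5 it was 1.37. The spread within groups also differed. The median coefficient of variation over the 5 groups was 4.46% for ITGA3, 5.16% for ITGA11, 7.63% for ITGA5 and 8.22% for ITGB3, and 15.6% to 25% for ITGA1, ITGA2, ITGA6, ITGAV, ITGB1 and ITGB2. The first 5 of these are the members with the lowest GC content, from 38.3% for ITGAV to 42.9% for ITGA6, whereas ITGB2 has the fewest counts.

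**Figure D2:**
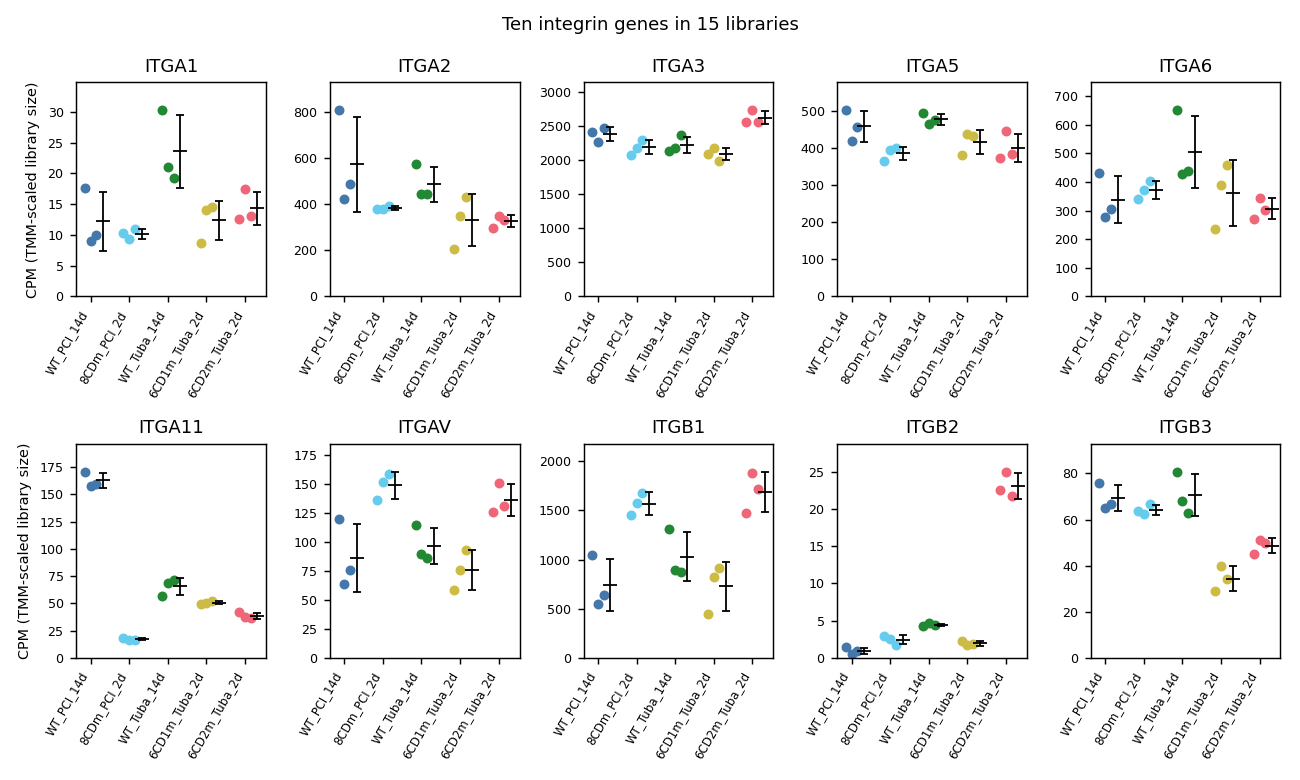
Level (CPM, linear axes from 0) of the 10 genes in the 15 libraries, with the mean and SD of each group beside its 3 points. ITGA11 separates all 5 groups, ITGB2 stands out in 6CD2m cells, and replicate 1 of WT cells on PCI-34051 lies above the other replicates for ITGA1, ITGA2, ITGA6, ITGAV and ITGB1.

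Among the collagen receptors, ITGA11 showed no overlap of libraries between groups. Its product is a collagen receptor known from fibroblasts. In WT cells on PCI-34051 it was at 171, 158 and 160 CPM, and in 8CDm cells at 18.1, 16.6 and 16.5 CPM. In WT cells on Tubastatin A it was at 57.1, 68.3 and 71.5 CPM. It was at 49.1, 50.7 and 51.7 CPM in 6CD1m cells and at 41.6, 37.5 and 36.5 CPM in 6CD2m cells. No library of one group overlapped with those of the next in the order WT on PCI-34051, WT on Tubastatin A, 6CD1m, 6CD2m and 8CDm. Such a lack of overlap is common. In either direction it was seen for 25.9% of all genes between the WT groups and 51.7% between the KDAC6 lines. In 6CD1m cells relative to WT cells on Tubastatin A it was seen, with lower values, for 17.2%. The fitted log2 fold change of 8CDm cells relative to WT cells on PCI-34051 was -3.25 (SE 0.10), a level 9.54-fold lower. That of WT cells on Tubastatin A relative to WT cells on PCI-34051 was -1.31 (SE 0.09). The log2 fold changes of 6CD1m and 6CD2m cells relative to WT cells on Tubastatin A were -0.38 and -0.77 (SE 0.09 each), and that between these lines was -0.39 (SE 0.09), lower in 6CD2m cells. Offsets for GC content moved none of these by more than 0.1.

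ITGA2, the alpha subunit of the main collagen receptor of many adherent cells, was at 806, 420 and 485 CPM in WT cells on PCI-34051 and at 379, 379 and 391 CPM in 8CDm cells. The groups did not overlap, but replicate 1 of the WT cells lay far above the others, and without 1 library at a time the log2 fold change of -0.57 (SE 0.24) ran from -0.75 to -0.24. With offsets for GC content it was -0.89. In WT cells on Tubastatin A ITGA2 was at 573, 443 and 442 CPM, above all libraries of 6CD1m cells (207, 347 and 432 CPM) and 6CD2m cells (298, 350 and 332 CPM). ITGA1 was highest in WT cells on Tubastatin A, at 30.3, 21.1 and 19.3 CPM, with no overlap with any other group. Between the WT groups its log2 fold change was 0.94 (SE 0.25), and 0.66 with offsets for GC content. ITGA1 was at 12.6, 17.4 and 13 CPM in 6CD2m cells and at 8.76, 14.0 and 14.5 CPM in 6CD1m cells. The lowest groups, WT on PCI-34051 (mean 12.2 CPM, SD 4.74) and 8CDm (mean 10.2 CPM, SD 0.798), overlapped. ITGA1 shares 475 exon bases with PELO, which lies within it on the same strand and had 284 to 636 counts per library, so that its counts are uncertain.

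Within a library, the ratio of ITGA11 to ITGA2 per kb was 22.3% in WT cells on PCI-34051 (SD 6.17, n = 3) and 3.25% in 8CDm cells (SD 0.205, n = 3). It was 10.1% in WT cells on Tubastatin A (SD 2.47), 12.2% in 6CD1m cells (SD 4.47) and 8.65% in 6CD2m cells (SD 1.31), groups whose libraries overlapped. ITGA1 amounted to 0.906% of ITGA2 in WT cells on PCI-34051 (SD 0.032) and to 2.05% in WT cells on Tubastatin A (SD 0.195).

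ITGA10, the remaining collagen-binding alpha subunit, is not a member and was tested. It was at 152 CPM in each library of 8CDm cells and at 74.9, 90.4 and 82.2 CPM in WT cells on PCI-34051. It was at 29.8, 29.7 and 26.5 CPM in 6CD2m cells, against 112, 123 and 132 CPM in WT cells on Tubastatin A and 148, 110 and 110 CPM in 6CD1m cells. It rose in 8CDm cells relative to WT cells on PCI-34051 (log2 fold change 0.88, SE 0.12, edgeR adjusted p = 4.5e-05), the comparison in which ITGA11 was 9.54-fold lower. It fell in 6CD2m cells relative to WT cells on Tubastatin A (log2 fold change -2.09, SE 0.12, edgeR adjusted p = 8.9e-09) and relative to 6CD1m cells (-2.10, SE 0.12, edgeR adjusted p = 1.1e-08). The collagen genes COL1A2 and COL3A1 stayed at a group mean of at most 1.02 and 0.107 CPM, and COL1A1 at 3.40 to 7.58 CPM. Other collagen genes were well expressed. Their average log2 CPM was 12.24 for COL6A3, 8.87 for COL4A2, 8.17 for COL6A2, 7.89 for COL4A1, 7.61 for COL6A1 and 6.93 for COL5A1.

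Of the laminin-binding members, ITGA3 differed less between groups than ITGA6. ITGA3, which was abundant in every group, was highest in 6CD2m cells at 2560, 2730 and 2560 CPM and did not overlap with the next group. The means of the other groups lay between 2090 and 2380 CPM and each overlapped with its neighbour. The log2 fold change of 6CD2m cells relative to 6CD1m cells was 0.33 (SE 0.08), and 0.61 with offsets for GC content. That of 8CDm cells relative to WT cells on PCI-34051 was -0.12 (SE 0.08) and turned to 0.23 with these offsets. ITGA6, which also pairs with ITGB4 in epithelia, was at 651, 428 and 438 CPM in WT cells on Tubastatin A, above every library of 8CDm and 6CD2m cells. Relative to this group 6CD2m cells had a log2 fold change of -0.72 (SE 0.22), and -0.70 with offsets for GC content. The other 4 groups overlapped with their neighbours, with means from 306 to 371 CPM.

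Among the fibronectin and vitronectin receptors, ITGA5 differed little between groups, with means from 386 CPM (SD 18.1) in 8CDm cells to 478 CPM (SD 14.5) in WT cells on Tubastatin A, and every group overlapped with its neighbour. ITGAV was at 136, 152 and 159 CPM in 8CDm cells and at 126, 151 and 131 CPM in 6CD2m cells, groups that overlapped. Both were above WT cells on Tubastatin A (115, 89.3 and 85.8 CPM), WT cells on PCI-34051 (120, 63.6 and 75.5 CPM) and 6CD1m cells (58.2, 75.9 and 93.3 CPM). The log2 fold change of 8CDm cells relative to WT cells on PCI-34051 was 0.79 (SE 0.21), and 0.38 with offsets for GC content. That of 6CD2m cells relative to 6CD1m cells was 0.84 (SE 0.21), and 0.51 with the offsets. ITGAV amounted to 35.6% of ITGA5 per kb in 8CDm cells (SD 1.17) and to 31.2% in 6CD2m cells (SD 0.258), and to between 14.0% and 22.0% in each library of the other groups.

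ITGB3, which pairs with ITGAV, was lowest in 6CD1m cells at 29, 39.7 and 34.1 CPM. It was next lowest in 6CD2m cells at 45.2, 50.9 and 50.0 CPM, with no overlap between these groups. The 3 other groups, with means from 64.2 to 70.7 CPM, overlapped with each other and lay above both. The log2 fold change relative to WT cells on Tubastatin A was -1.04 (SE 0.12) in 6CD1m cells and -0.54 (SE 0.12) in 6CD2m cells. Offsets for GC content left the first at -1.04 and moved the second to -0.42. A protein-coding gene annotated across ITGB3, AC068234.1, shares 2266 of its exon bases and had at most 33 counts per library.

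ITGB1, the common beta partner of the collagen, laminin and fibronectin receptors, was higher in 6CD2m and 8CDm cells than in the other 3 groups. It was at 1470, 1880 and 1720 CPM in 6CD2m cells and at 1450, 1580 and 1680 CPM in 8CDm cells. It was at 1310, 890 and 874 CPM in WT cells on Tubastatin A. It was at 1050, 550 and 635 CPM in WT cells on PCI-34051 and at 441, 819 and 918 CPM in 6CD1m cells. The first pair of groups overlapped with each other and with no other group, and the 3 other groups overlapped with each other. The log2 fold change of 8CDm cells relative to WT cells on PCI-34051 was 1.08 (SE 0.26), and 0.75 with offsets for GC content. That of 6CD2m cells relative to 6CD1m cells was 1.22 (SE 0.26), and 0.96 with the offsets. Replicate 1 lay apart from the others in 6CD1m cells and in both WT groups, and leaving out 1 library at a time gave 0.90 to 1.41 for the former comparison and 0.96 to 1.48 for the latter.

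ITGB2, the beta subunit of the leukocyte integrins, was at 22.6, 25.0 and 21.7 CPM in 6CD2m cells, from 382, 494 and 390 counts. It was at 4.26, 4.60 and 4.39 CPM in WT cells on Tubastatin A and at 2.27, 1.68 and 1.81 CPM in 6CD1m cells. It was at 2.96, 2.49 and 1.77 CPM in 8CDm cells and at 1.39, 0.506 and 0.837 CPM in WT cells on PCI-34051, where it had 8 to 26 counts. 6CD2m cells were far above all others, 8CDm and 6CD1m cells overlapped, and the other neighbours in the order of means did not. The log2 fold change of 6CD2m cells was 2.39 (SE 0.22) relative to WT cells on Tubastatin A and 3.59 (SE 0.25) relative to 6CD1m cells, a level 12-fold higher. 6CD1m cells were lower than WT cells on Tubastatin A, with a log2 fold change of -1.20 (SE 0.26). 8CDm cells were higher than WT cells on PCI-34051, with a log2 fold change of 1.37 (SE 0.29), and 1.68 with offsets for GC content. Between the WT groups the log2 fold change was 2.24 (SE 0.28), higher on Tubastatin A. Even where it was highest, ITGB2 amounted to 1.22% of ITGB1 per kb (SD 0.128, n = 3).

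ITGB2-AS1, an antisense gene that shares 303 exon bases with ITGB2, had 3 to 98 counts per library. It was at a mean of 4.60 CPM in 6CD2m cells (SD 0.369) and 0.503 to 1.80 CPM in the other groups. The strand setting of the counting is not given in the sources used here, and without strand the reads of the overlapping part cannot be assigned to either gene. Of the alpha partners of ITGB2, ITGAX was at 17.0, 16.5 and 16.0 CPM in 6CD2m cells and at 11.4, 9.90 and 8.78 CPM in 6CD1m cells. It rose in the former relative to the latter (log2 fold change 0.72, SE 0.13, edgeR adjusted p = 0.00057), a call that was lost with the replicate number as a block (edgeR adjusted p = 0.0018). It was also lost under upper-quartile scaling and without the filter (edgeR adjusted p = 0.0017 and 0.0012). ITGAM had 15 to 27 counts in 6CD2m libraries and at most 8 in any other. It passed the threshold in no comparison in edgeR, and in DESeq2 it passed in 6CD2m cells relative to WT cells on Tubastatin A (higher). ITGAL and ITGAD had at most 10 and 9 counts in any library.

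The summed level of 13 leukocyte markers was highest in the same group as ITGB2. It was 149 to 168 CPM in 6CD2m cells, 77.5 to 85.0 CPM in 8CDm cells and 56.6 to 67.7 CPM in the other groups. HCLS1 made up most of it, at a mean of 138 CPM in 6CD2m cells (SD 8.37) and 50.6 to 75.4 CPM elsewhere, and LAPTM5 was at 15.2 CPM in 6CD2m cells and at most 1.35 CPM elsewhere. The defining markers were at or near 0. PTPRC, which marks all leukocytes, had 1 count in a single library of WT cells on PCI-34051 and none in the others, TYROBP had none, and CD3E, CD14 and SPI1 had group means of at most 0.238 CPM. Between 5 and 8 of the 13 markers were at the floor of 3 counts in each group. The part of these markers in the ITGB2 values was not tested. In these bulk samples a larger share of cells of one kind and more RNA per cell cannot be told apart.

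Across the 10 genes, counts past the false discovery rate of 0.001 used in the study (edgeR's quasi-likelihood test) can be set beside those of all 19535 genes tested. Since the genes were picked with these results known, nothing is read from them. In 6CD1m cells relative to WT cells on Tubastatin A, 1 of 10 was past this threshold, ITGB3 (lower), against 0.793% of all genes in either direction and 0.522% lower. The libraries of 6 of 10 did not overlap and were lower, as for 17.2% of all genes. All 10 log2 fold changes were below 0 (median -0.49, against -0.01 over all genes), except that ITGA3 turned to 0.03 under upper-quartile scaling, which moved the median of all genes by 0.12.

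In 6CD2m cells relative to WT cells on Tubastatin A, ITGB2 (higher) and ITGA11 (lower) were past the threshold, against 11.8% of all genes. The libraries of all 10 did not overlap, 4 higher and 6 lower, as for 50.0% of all genes, and the median log2 fold change was -0.39. In 8CDm cells relative to WT cells on PCI-34051, ITGA11 (lower) was past the threshold, against 11% of all genes in either direction and 6.27% lower. The libraries of 6 did not overlap, ITGAV, ITGB1 and ITGB2 higher and ITGA2, ITGA5 and ITGA11 lower, as for 48.1% of all genes. The median log2 fold change was -0.12, against -0.04 over all genes.

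WT cells on Tubastatin A relative to WT cells on PCI-34051 differed in ITGB2 (higher) and ITGA11 (lower) past the threshold, against 0.42% of all genes. With the replicate number as a block, ITGA11 was past it and ITGB2 was not, and 27 genes in place of 82 were past it in all. The libraries of ITGA1 and ITGB2 did not overlap and were higher, and those of ITGA11 were lower, against 25.9% of all genes, and the median log2 fold change was 0.11. In 6CD2m cells relative to 6CD1m cells, which differ in the domain that is inactive and share inhibitor and duration, ITGB2 (higher) was past the threshold, against 13.2% of all genes in either direction and 6.65% higher. The libraries of ITGA3, ITGAV, ITGB1, ITGB2 and ITGB3 did not overlap and were higher, and those of ITGA11 were lower, against 51.7% of all genes, and the median log2 fold change was 0.26. These comparisons share groups, WT cells on Tubastatin A entering 3 of them, so that their values are not independent.

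**Figure D3:**
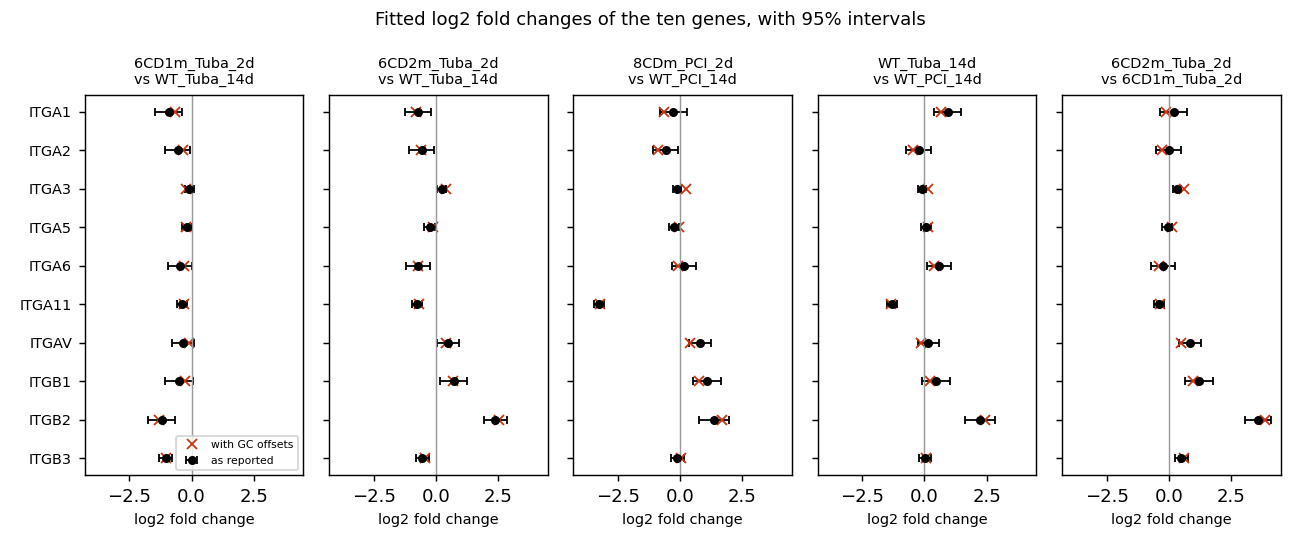
Fitted log2 fold changes of the 10 genes in 5 comparisons (points, with 95% intervals as bars) and the same values with offsets for GC content (crosses). ITGA11 lies at -3.25 in 8CDm cells and ITGB2 at 3.59 between the KDAC6 lines. The crosses of 7 of 50 values lie on the other side of 0, in 8CDm cells those of ITGA3, ITGA6 and ITGB3.

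The other integrin subunits were tested. In 6CD1m cells relative to WT cells on Tubastatin A, ITGB4, the beta partner of ITGA6 in epithelial adhesion, rose as 1 of 12 tested (log2 fold change 1.61, SE 0.18, edgeR adjusted p = 9.8e-05). It also rose in 6CD2m cells (1.99, SE 0.18, edgeR adjusted p = 9.8e-07), where it was at 12.3, 12.9 and 11.7 CPM against 2.71, 2.98 and 3.58 CPM. The call in 6CD1m cells was lost without replicate 1 or replicate 2 of WT cells on Tubastatin A (edgeR adjusted p = 0.0011 for each). It was also lost with only the 6 libraries compared (edgeR adjusted p = 0.016). In 6CD2m cells 3 others fell, while ITGB4 rose. These were ITGA10, ITGB5, a partner of ITGAV (log2 fold change -0.89, SE 0.09, edgeR adjusted p = 3.7e-06), and ITGB8, another partner of ITGAV (-1.43, SE 0.22, edgeR adjusted p = 0.00017). The ITGB8 call was lost without any 1 of 4 of the libraries, replicates 1 and 3 of 6CD2m cells and replicates 1 and 2 of the WT cells, with edgeR adjusted p from 0.0014 to 0.0019.

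In 8CDm cells relative to WT cells on PCI-34051, ITGA10 rose and no other subunit passed in edgeR. DESeq2 also called ITGB8 (higher) and ITGB5 (lower), of which edgeR called ITGB8 without the filter and ITGB5 with upper-quartile scaling. ITGB8 had a log2 fold change of 0.98 (SE 0.21, edgeR adjusted p = 0.0026), and 0.52 with offsets for GC content. Between the WT groups none of the 12 passed in the main edgeR fit, with 6 at an unadjusted p below 0.05 and 3 passing in DESeq2. ITGAX just missed the threshold there (log2 fold change 0.93, SE 0.13, edgeR adjusted p = 0.001). ITGAX passed in edgeR with GC offsets and without the filter, and ITGA10 with GC offsets, both higher on Tubastatin A. Relative to 6CD1m cells, 6CD2m cells had lower ITGB5 (log2 fold change -0.64, SE 0.09, edgeR adjusted p = 9.2e-05), lower ITGA10 and higher ITGAX. The ITGB5 call was lost with offsets for GC content (-0.47, edgeR adjusted p = 0.0017). It was also lost without replicate 2 or 3 of 6CD1m cells or replicate 1 or 3 of 6CD2m cells (edgeR adjusted p from 0.0012 to 0.0023). The ITGAX call was lost without any 1 of the 6 libraries other than replicate 1 of 6CD1m cells (edgeR adjusted p from 0.0017 to 0.0027). Of the remaining tested subunits, ITGA2B, ITGA4, ITGA7, ITGA9, ITGAE and ITGB7 passed in none of the 5 comparisons in edgeR with the filter on low counts. In DESeq2 ITGA7 passed between the WT groups, as did ITGA4 in edgeR without the filter, both higher on Tubastatin A. ITGA2B, the platelet partner of ITGB3, had 26 to 38 counts in 6CD2m libraries and at most 8 in any other. ITGA7, a laminin-binding subunit, had a log2 fold change of 1.73 (SE 0.33, edgeR adjusted p = 0.0053) between the WT groups, higher on Tubastatin A, and ITGA4 one of 0.98 (SE 0.26, edgeR adjusted p = 0.03). The adjusted p values of ITGA9, ITGAE and ITGB7 in edgeR were 0.035 or above in every comparison.

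Ligands of these receptors were read from a list of 39 genes, of which 36 were tested. In 6CD2m cells relative to WT cells on Tubastatin A, 9 rose and 6 fell (41.7% of those tested, against 11.8% of all genes, with a median log2 fold change of 0.25). Relative to 6CD1m cells 11 rose and 4 fell (41.7%, against 13.2%, median 0.31). The list was drawn up with results of these data known, so that nothing particular to it is read from these shares. ICAM1, a ligand of the ITGB2 integrins, was at 23.4, 25.9 and 27.7 CPM in 6CD2m cells and at most 4.59 CPM in any other library. It rose relative to WT cells on Tubastatin A (log2 fold change 3.48, SE 0.23, edgeR adjusted p = 3.6e-08) and to 6CD1m cells (3.70, SE 0.24, edgeR adjusted p = 3.2e-08). LAMA3, a chain of the laminin that ITGA3 and ITGA6 receptors bind, was at 1.12, 1.17 and 1.28 CPM in 6CD2m cells and 1.65, 1.14 and 1.99 CPM in 8CDm cells, against 14.6 to 32.9 CPM in every library of the other groups. It fell in 6CD2m cells relative to WT cells on Tubastatin A (log2 fold change -4.06, SE 0.18, edgeR adjusted p = 3e-10), and in 8CDm cells relative to WT cells on PCI-34051 (-4.31, SE 0.17, edgeR adjusted p = 9.8e-11). Relative to 6CD1m cells it fell in 6CD2m cells by 3.76 on the log2 scale.

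In 8CDm cells relative to WT cells on PCI-34051, 5 ligands rose and 8 fell (36.1%, against 11% of all genes, median -0.02). THBS1, a matrix glycoprotein, was at 1360, 1470 and 1480 CPM against 656, 402 and 424 CPM in the WT cells (log2 fold change 1.54, SE 0.18, edgeR adjusted p = 1.5e-05). In 6CD2m cells it was at 184, 222 and 194 CPM and fell relative to 6CD1m cells (-1.75, SE 0.18, edgeR adjusted p = 4.1e-06). FN1, the fibronectin gene, named after its values were seen, was at a mean of 3020 CPM in 8CDm cells (SD 66) and 425 CPM in 6CD2m cells (SD 53.0). It fell in 6CD2m cells relative to WT cells on Tubastatin A (log2 fold change -1.51, SE 0.21, edgeR adjusted p = 6.9e-05). It also fell there relative to 6CD1m cells (-1.50, SE 0.21, edgeR adjusted p = 7.8e-05). In 8CDm cells relative to WT cells on PCI-34051, FN1 missed the threshold in the main fit (1.10, SE 0.21, edgeR adjusted p = 0.0011). In that comparison it passed, higher, in DESeq2, and in edgeR with GC offsets, with upper-quartile scaling and without the filter. SPP1, osteopontin, a ligand of ITGAV receptors, was at 16.0, 15.9 and 16.6 CPM in WT cells on Tubastatin A. It fell in 6CD1m cells (log2 fold change -1.89, SE 0.24, edgeR adjusted p = 0.00021), in 6CD2m cells (-2.40, SE 0.24, edgeR adjusted p = 2.3e-06) and, relative to WT cells on PCI-34051, in 8CDm cells (-1.46, SE 0.24, edgeR adjusted p = 0.00027). The call in 6CD1m cells was lost without replicate 2 of that line or any replicate of WT cells on Tubastatin A (edgeR adjusted p from 0.0011 to 0.0028). That in 8CDm cells was lost without any replicate of that line or without replicate 3 of the WT cells (edgeR adjusted p from 0.001 to 0.0027). Of the 36 ligands 2 fell in 6CD1m cells (5.56%, against 0.793%, median -0.20). The other was LAMA1, a laminin chain, which had a log2 fold change of -0.92 (SE 0.10, edgeR adjusted p = 4.7e-05). With only the 6 libraries compared, the calls of LAMA1 and SPP1 in 6CD1m cells were lost (edgeR adjusted p = 0.0072 and 0.023). Between the WT groups no ligand passed in edgeR, with 17 at an unadjusted p below 0.05 and 4 passing in DESeq2.

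**Figure D4:**
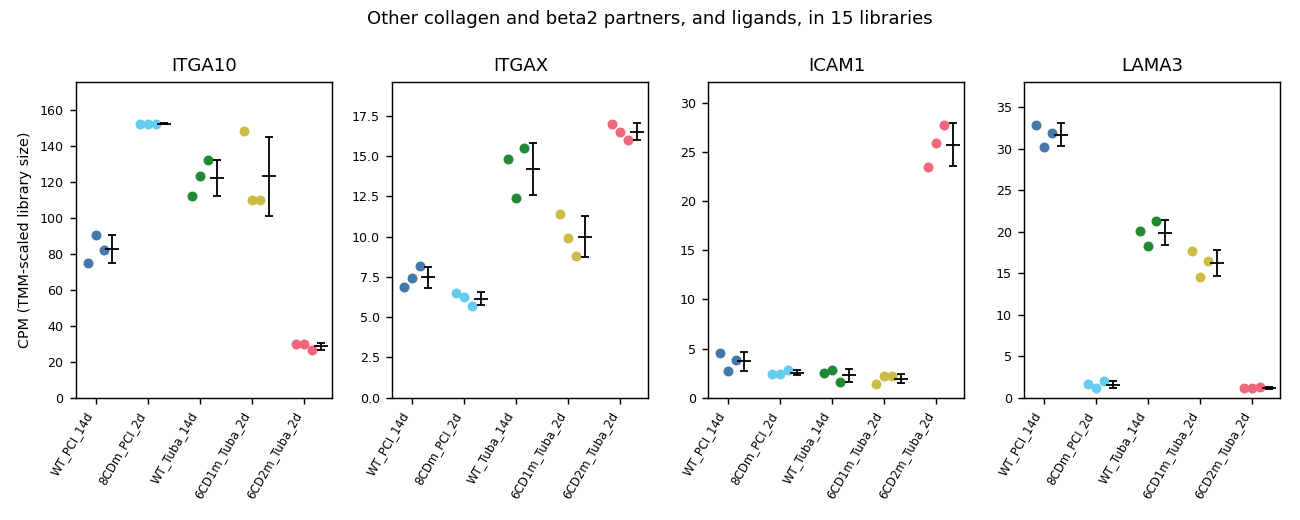
Level (CPM, linear axes from 0) of ITGA10, ITGAX, ICAM1 and LAMA3 in the 15 libraries, with the mean and SD of each group beside its 3 points. ICAM1 is high in 6CD2m cells, LAMA3 is low in 6CD2m and 8CDm cells, and ITGA10 is low in 6CD2m cells and high in 8CDm cells.

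Genes for proteins that link integrins to actin or carry their signals were read from a list of 32, of which 30 were tested. In 6CD2m cells relative to WT cells on Tubastatin A, 1 rose and 4 fell (16.7% of those tested, against 11.8% of all genes, with a median log2 fold change of -0.05). TLN2, a talin that activates integrins, was at 63.9, 68.2 and 62.7 CPM against 136, 125 and 131 CPM (log2 fold change -1.01, SE 0.08, edgeR adjusted p = 4.3e-07). KANK2, which binds talin, fell there too (-0.88, SE 0.10, edgeR adjusted p = 5.7e-06), while PARVA, parvin, rose (0.89, SE 0.13, edgeR adjusted p = 0.00012). The PARVA call was lost without replicate 2 or 3 of WT cells on Tubastatin A (edgeR adjusted p = 0.0011 and 0.0012). In 8CDm cells relative to WT cells on PCI-34051, 1 rose and 4 fell (16.7%, against 11%, median -0.05), among them PARVA (-1.63, SE 0.14, edgeR adjusted p = 6.1e-07), KANK2 (-1.24, SE 0.10, edgeR adjusted p = 2.5e-07) and BCAR1, an adhesion scaffold (-1.06, SE 0.19, edgeR adjusted p = 0.00057). The BCAR1 value was -0.63 with offsets for GC content. Its call was lost without any 1 of the 6 libraries other than replicate 1 of the WT cells (edgeR adjusted p from 0.003 to 0.0036). It was also lost with upper-quartile scaling, with the replicate block and with only the 6 libraries compared (edgeR adjusted p = 0.0012, 0.0022 and 0.0013).

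Relative to 6CD1m cells, 3 rose and 3 fell in 6CD2m cells (6 of 30, against 13.2%, median 0.11), with TLN2 at -1.20 (SE 0.08, edgeR adjusted p = 9e-08), KANK2 at -0.71 (SE 0.10, edgeR adjusted p = 5e-05) and PARVA at 0.76 (SE 0.13, edgeR adjusted p = 0.00044). The KANK2 call was lost with the replicate number as a block together with offsets for GC content (-0.47, edgeR adjusted p = 0.0017) and with only the 6 libraries compared (-0.69, edgeR adjusted p = 0.0023). That of PARVA was lost with the block alone (edgeR adjusted p = 0.0018). It was also lost without any 1 of the 6 libraries other than replicate 3 of 6CD1m cells (edgeR adjusted p from 0.0014 to 0.003). Between the WT groups TNS1, a tensin, was higher on Tubastatin A (log2 fold change 0.66, SE 0.09, edgeR adjusted p = 0.0006), a call lost with the block (edgeR adjusted p = 0.0036). It was also lost without any 1 of the 6 libraries other than replicate 1 of WT cells on PCI-34051 (edgeR adjusted p from 0.0011 to 0.0054). In 6CD1m cells relative to WT cells on Tubastatin A none passed in edgeR, with 13 at an unadjusted p below 0.05 and 2 passing in DESeq2.

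Among 14235 genes, the levels most like those of ITGA11 over the 15 libraries, by Pearson's r of log2 CPM, were those of DHRS3 (0.984), ALDH3B1 (0.976), FTL (0.973) and COTL1 (0.970). DHRS3 was at a mean of 32.6 CPM in WT cells on PCI-34051 (SD 2.58) and 2.92 CPM in 8CDm cells (SD 0.325). FTL, the ferritin light chain, was at 1270 CPM (SD 112) and 362 CPM (SD 18.1) in these groups. For ITGB2 they were TMEM59L (0.980), XPNPEP1 (0.954), HERC6 (0.952), NHSL2 (0.948) and RP11-488P3.1 (0.947). NHSL2 was at a mean of 9.39 CPM in 6CD2m cells (SD 0.382) and at most 1.22 CPM elsewhere. The points share libraries and groups, and these values are a description.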

How the data were processed

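Total RNA of each library was rRNA-depleted and sequenced as paired reads (per the labels). The submitters' processing notes name Trimmomatic 0.39, Bowtie2 2.4.5, RSEM 1.3.3, DESeq2 1.38.2 and the GRCh38 build. The annotation release and strand setting are not given in the sources used here. The authors deposited expected counts per gene, that is, estimated read numbers without normalization. They were rounded to whole numbers first (21.8% of those above 0 had decimals). Totals were 10932455 to 19983710 per library. Floors (3 counts) cover counting error only, and the 95% intervals of fold changes come from the fit over replicates.

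Counts were fitted in R 4.3.3 with edgeR 4.0.16 (TMM scaling, its filter on low counts, quasi-likelihood test), with all 15 libraries in 1 model and Benjamini-Hochberg adjustment over 19535 genes at a false discovery rate of 0.001. Tables were made in Python 3.11.15 with pandas 2.3.3. Gene positions, exon lengths and GC content came from GENCODE 29 (57055 identifiers matched), and 99.2% of tested genes had a GC value. GC offsets came from lowess curves (span 0.3), fitted per library, of log2 deviations from the average library over gene GC content. In simulated counts the main fit recovered 77 of 200 genes changed 2-fold (0 false calls) and 155 of 200 changed 4-fold (2 false calls). Most 2-fold changes were thus missed at this threshold. The simulated counts held no GC trend and no replicate effect.

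The members and gene lists were chosen with earlier results of these data known. Named genes were all members, the other subunits tested, and the 3 ligands and 3 adaptors per comparison with the largest log2 fold change among those past the threshold, if groups did not overlap and log2 CPM averaged 1 or more. The 5 genes most like ITGA11 and ITGB2 (log2 CPM with a prior count of 2) were also named, except 1 that is not reported here. Marker lists of leukocyte, epithelial, endothelial and mesenchymal cells were read as levels. FN1, ITGB2-AS1 and the collagen genes were named after their values were seen. Replicates of a group differed by more than sampling noise. The deviations of same-numbered libraries correlated positively between the WT groups (0.757, 0.453 and 0.425) and between the KDAC6 lines (0.40, 0.11 and 0.174). The labels give replicate numbers but state no pairing, and these correlations do not settle whether there was one. The alternatives were DESeq2 1.42.0, upper-quartile scaling, no filter, a rate of 0.05, only the 6 libraries compared, the replicate block, GC offsets, both together, and leaving out each library.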

Additional observations from a re-analysis of the deposited data

Results flagged for a closer look

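For some integrin subunits, every library of a KDAC6 line lay on one side of its WT group and every library of the KDAC8 line on the opposite side of its own. These differences were not tested, and the comparisons set side by side differ in inhibitor as well as in line. Lack of overlap in either direction was seen for 50.0% of all genes in 6CD2m cells and 48.1% in 8CDm cells. With lower values it was seen for 17.2% in 6CD1m cells. How many of all genes lay on opposite sides in this way was not counted, so nothing particular to integrins is read from it. The log2 fold change of ITGB2 was -1.20 in 6CD1m cells relative to WT cells on Tubastatin A and 1.37 in 8CDm cells relative to WT cells on PCI-34051, while the other KDAC6 line, 6CD2m, was at 2.39, the direction of 8CDm cells. That of ITGA10 was -2.09 in 6CD2m cells and 0.88 in 8CDm cells, with 6CD1m cells at 0.01. That of ITGAX was 0.21 in 6CD2m cells and -0.28 in 8CDm cells, neither past the threshold in edgeR, and -0.51 in 6CD1m cells, the direction of 8CDm cells. That of ITGB8 was -0.73 in 6CD1m cells and -1.43 in 6CD2m cells, against 0.98 in 8CDm cells.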

How the results depend on the processing

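No result changed direction past the threshold. Counts are given as genes called, then other subunits, ligands and adaptors where they moved by over 1.5 times. In 6CD1m cells relative to WT cells on Tubastatin A, 155 genes became 1847 at a false discovery rate of 0.05, 617 in DESeq2, 291 with GC offsets, 428 without the filter, 9 with only the 6 libraries and 76 with the replicate block. The 1 subunit became 2 at 0.05 and 0 with 6 libraries. The 2 ligands became 11 at 0.05, 4 with GC offsets, 5 without the filter and 0 with 6 libraries. The 0 adaptors became 7 at 0.05, 2 in DESeq2, 1 with GC offsets and 1 with upper-quartile scaling. In 6CD2m cells relative to the same WT cells, 2309 genes became 6409 at 0.05 and 3642 in DESeq2, 4 subunits 7 at 0.05, 15 ligands 24 at 0.05, and 5 adaptors 10 at 0.05 and 8 in DESeq2. In 8CDm cells, 2142 genes became 7059 at 0.05, 3847 in DESeq2, 831 with 6 libraries and 1411 with the block. The 1 subunit became 4 at 0.05, 3 in DESeq2, 2 without the filter and 2 with upper-quartile scaling. The 13 ligands became 23 at 0.05 and 6 with 6 libraries. The 5 adaptors became 16 at 0.05, 14 in DESeq2, 8 with GC offsets, 8 without the filter, 2 with 6 libraries, 3 with the block and 9 with upper-quartile scaling. Between the WT groups, 82 genes became 1851 at 0.05, 705 in DESeq2, 238 with GC offsets, 320 without the filter, 1 with 6 libraries and 27 with the block. The 0 subunits became 4 at 0.05, 3 in DESeq2, 2 with GC offsets, 2 without the filter and 1 with the block and GC offsets together. The 0 ligands became 6 at 0.05, 4 in DESeq2 and 1 without the filter. The 1 adaptor became 4 at 0.05, 2 in DESeq2 and 0 with 6 libraries, with the block or with upper-quartile scaling. Between the KDAC6 lines, 2577 genes became 7884 at 0.05, 4272 in DESeq2 and 1088 with 6 libraries, 3 subunits 7 at 0.05 and 1 with 6 libraries, 15 ligands 23 at 0.05, and 6 adaptors 20 at 0.05, 10 in DESeq2 and 1 with 6 libraries. Fits of 6 libraries have fewer samples and the rate of 0.05 is a looser threshold. The cause was not tested for the others.

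Leaving out 1 library at a time gave, in the same order of comparisons, 64 to 107, 1440 to 1635, 1119 to 2593, 25 to 147 and 1423 to 2317 genes. It gave 0 to 1, 3 to 4, 1, 0 and 1 to 3 subunits, 1 to 2, 10 to 12, 6 to 16, 0 and 12 to 15 ligands, and 0, 4 to 5, 2 to 8, 0 to 1 and 3 to 5 adaptors. The counts of 2593 and 147 genes were those without replicate 1 of WT cells on PCI-34051. The share of calls that were higher in 6CD2m cells relative to WT cells moved from 899 of 2309 to 49.7% with upper-quartile scaling or GC offsets, and between the WT groups from 65 of 82 to 67.0% in DESeq2.

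Of the members, ITGA11 in 8CDm and 6CD2m cells relative to WT cells and ITGB2 in 6CD2m cells were past the threshold in every fit at the rate of 0.001 that kept all libraries of both groups. The fit of only the 6 libraries lost ITGB3 in 6CD1m cells and both members between the WT groups, of which ITGB2 was also lost with the replicate block. The signs of 7 of 50 member values turned with GC offsets, none of them past the threshold, as did ITGA3 in 6CD1m cells (0.03), ITGA5 and ITGB3 between the WT groups (-0.02 and -0.05) with upper-quartile scaling, and ITGA2 between the KDAC6 lines in DESeq2 (0.01) and with 6 libraries (0.02). In the comparisons with WT cells the deviations of same-numbered libraries correlated negatively. The values were -0.683, -0.231 and -0.565 for 6CD1m cells, -0.483, -0.307 and -0.144 for 6CD2m cells, and -0.175, -0.113 and -0.0553 for 8CDm cells. DESeq2 put more members past the threshold, 6 in place of 1 between the KDAC6 lines. It also called more of all 19535 genes there, 2315 higher and 1957 lower, against 1299 and 1278 in edgeR. Nothing about the members is read from this count. In 8CDm cells relative to WT cells, ITGB2 (higher) also passed in DESeq2, with GC offsets and without the filter. There ITGB1 (higher) passed in DESeq2 and without the filter, ITGAV (higher) without the filter and ITGA2 (lower) with GC offsets. ITGB2 is limited by depth, with 8 to 26 counts in WT cells on PCI-34051.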
